A study of Mus musculus with 2 samples.

Results

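The 10 genes described here, of 32285 in the tables, encode subunits of CatSper, the calcium channel of the sperm tail. They were taken by name: Catsper1, Catsper2, Catsper3 and Catsper4, which encode the 4 pore subunits, and Catsperb, Catsperd, Catsperg1, Catsperg2, Catspere1 and Catsperz, which encode auxiliary subunits or their close relatives. Each was present in both libraries. Single-cell RNA was captured with a droplet 3′ kit from whole dissociated mouse testis, 1 library from Dot1L cKO testes (Dot1L fl/delta; Ddx4-Cre+) and 1 from control testes (Dot1L fl/+; Cre-). DOT1L places methyl groups on lysine 79 of histone H3, and Ddx4 is a germ cell gene, so a Cre driven by it acts in germ cells. The control testes still carried 1 floxed allele and no Cre. The labels give neither the age nor the number of the animals, nor which part of the gene is floxed.

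CatSper lies in the membrane of the principal piece of the sperm flagellum and opens at alkaline pH, letting in the calcium that drives hyperactivated swimming. The pore subunits assemble around the conducting path, and CATSPERB, CATSPERG, CATSPERD and CATSPERE form a canopy of large extracellular domains above it. CATSPERZ binds on the cytoplasmic side together with the calcium sensor EFCAB9. In male mice, loss of any one of the pore genes leads to infertility. The complex is put together while spermatids build their tails, after the meiotic divisions.

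The cKO library held 20601 barcodes with a median of 2188 unique molecular identifiers (UMIs, each standing for 1 captured transcript), and the control library held 17408 with a median of 2383.5. After filtering, 17611 cKO and 15284 control cells were kept. Cells were clustered without the CatSper genes, and 15 of 31 clusters were placed in 7 germ cell classes by fixed marker genes, from spermatogonium-like to elongating spermatid-like. The round spermatid-like class held 1385 cKO and 1452 control cells, and the early pachytene spermatocyte-like class 522 and 397. Clusters left unnamed made up 43.1% of cKO and 40.8% of control cells, and the largest of them scored highest for erythroid or Sertoli markers. Clusters set apart because they held little RNA made up 12.5% of cKO and 11.05% of control cells. With 1 library per genotype no difference between the genotypes could be tested: each one is a difference between a pair of libraries, and every 95% interval covers counting error only. Between the libraries 102 cell barcodes were shared, 78 of them among kept cells.

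Levels are in CPM, the UMIs of a gene scaled to all UMIs of the class, and so a share of that class's RNA. They are compared across classes within a gene, not between genes. Leydig, mesenchymal, macrophage and T cell-like cells (547 cKO and 173 control cells) were pooled as somatic cells, which should hold CatSper transcripts as free RNA alone. Their counts were clumped, however: the 144 cKO and 49 control Catsperb UMIs lay in 6.22% and 4.62% of these cells. Whether germ cell material other than free RNA added to the somatic level was not tested. The somatic cells were shallow, with medians of 2444 UMIs in cKO and 1983 UMIs in control, against 19504 and 20733 in round spermatid-like cells. Free RNA can thus be a larger share of their UMIs, and their CPM may overstate its level in deeper classes. The targeted gene, Dot1l, was at 5.42 CPM in cKO and 42.2 CPM in control round spermatid-like cells, a log2 ratio of −2.96 (−3.20 to −2.72), and it was lower in cKO in 6 of the 7 germ cell classes. The exception was early pachytene, at 58.5 CPM in cKO and 56.4 CPM in control cells. It was also lower in somatic cells, at 22.1 CPM in cKO and 43.2 CPM in control cells, a log2 ratio of −0.97 (−1.58 to −0.34). A Ddx4-driven Cre should not act there. By the labels, however, the cKO genotype also holds 1 delta (deleted) allele, apart from the Cre, where the control holds 1 + allele. Whether that allele accounts for the somatic value was not tested. Because the floxed part is not given, 3′ counts may lie outside it and do not check the deletion by themselves.

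The promoters of a few members are shown because the members divided by when their transcripts first appeared. Catsperb, Catspere1 and Catsperg1 were at or near their highest level in early pachytene, whereas Catsper4 was low in pachytene and highest in round spermatids. Each sequence is RefSeq's, on GRCm38.p6, and runs from 180 to 31 bases before the RefSeq start of the gene, 5′ to 3′ on the gene's strand. They lie at chr12:101404493-101404642 on the plus strand for Catsperb, chr1:177808239-177808388 on the plus strand for Catspere1, chr7:29214064-29214213 on the minus strand for Catsperg1 and chr4:134227414-134227563 on the minus strand for Catsper4. No exon of the GENCODE vM21 annotation overlapped them. Capitals mark the letters CAACTG on either strand, the core of the sites read by MYB family factors such as MYBL1, a regulator of genes transcribed in pachytene.
Catsperb: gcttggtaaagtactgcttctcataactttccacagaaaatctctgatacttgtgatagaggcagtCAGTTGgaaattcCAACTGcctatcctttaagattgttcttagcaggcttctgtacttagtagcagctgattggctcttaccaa
Catspere1: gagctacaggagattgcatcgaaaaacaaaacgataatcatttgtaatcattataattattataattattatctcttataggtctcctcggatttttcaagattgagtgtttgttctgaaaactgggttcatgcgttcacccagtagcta
Catsperg1: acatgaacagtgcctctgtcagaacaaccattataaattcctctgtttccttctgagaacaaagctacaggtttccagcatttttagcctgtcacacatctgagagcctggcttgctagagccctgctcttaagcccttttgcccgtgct
Catsper4: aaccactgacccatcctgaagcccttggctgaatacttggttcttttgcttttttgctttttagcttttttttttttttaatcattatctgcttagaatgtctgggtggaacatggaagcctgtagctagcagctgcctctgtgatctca
The RefSeq table held promoters for 8 of the 10 members, in 10 windows. Catsperg1 and Catsperd each had more than 1 start, and only 1 of the Catsperg1 starts is printed above. A member counted if any of its windows held a match, whereas the shares of all promoters used 1 window per gene. CAACTG was searched on both strands of the 250 bases before each start, together with TGACGTCA, the site of CREB family factors such as CREM, its half-site TGACG, which lies within it, and GTTGCC, a half-site of RFX factors. CAACTG was found in 1 of the 8 members, Catsperb, which held 2 matches on opposite strands, and in 11.1% of 27026 RefSeq promoters. TGACG was found upstream of 2 members, Catsper2 and Catsperd (at only 1 of its starts), and in 17.9% of all promoters. TGACGTCA and GTTGCC were in 0 of the 8 members, against 1.62% and 10.5% of all promoters. A match is a run of letters and does not show binding.

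Most CatSper subunit transcripts were present long before the sperm tail is built. Onset was taken as the first class at 10% or more of the gene's highest class whose counting interval lay above that of somatic cells. By that rule 7 of the 10 genes came on before the round spermatid stage in both libraries, among them every auxiliary gene and 1 pore gene, Catsper2. Catsper1, Catsper3 and Catsper4 first met the rule in round spermatid-like cells in both. In the diplotene to secondary class they were already at 16.4% to 24.1% of their highest class. They missed the rule there only because their intervals for the whole class did not lie above those of the shallower somatic cells. In the later of the clusters in that class, Catsper3 and Catsper4 did stand above the somatic intervals, so their onset depends on how wide the class is. The class with the highest level was the same in cKO and control for each of the 10 genes, and onset was the same for 7 of them.

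**Figure D1:**
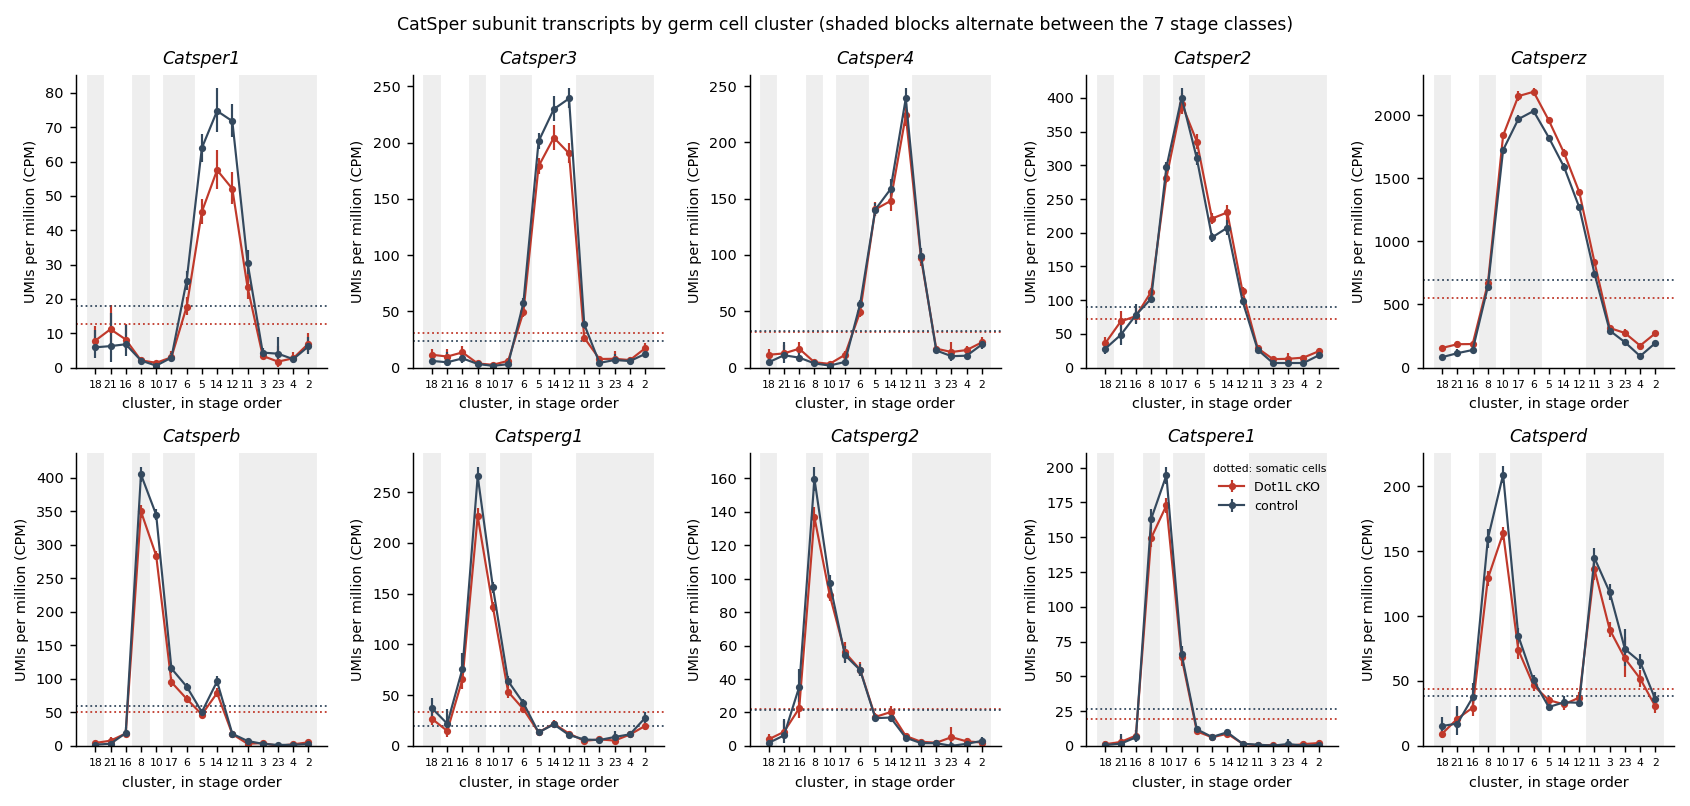
Level in CPM in each of the 15 germ cell clusters, in stage order along the x axis, for cKO (red) and control (dark blue); bars are 95% exact Poisson intervals, dotted lines the somatic level, and shaded blocks alternate between the 7 classes. Catsper1, Catsper3 and Catsper4 stay under 12 CPM in the diplotene cluster 17 and peak in round spermatid clusters, Catsperb and Catsperg1 peak in cluster 8, and Catsperd has a second peak in cluster 11.

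The late group was made of the pore genes Catsper1, Catsper3 and Catsper4. Catsper1 (chr19:5335741-5344280, plus strand), the first subunit of the channel to be described, was at 50.2 CPM in cKO and 69.0 CPM in control round spermatid-like cells. In mid to late pachytene it was at 1.39 and 0.53 CPM, under the 12.6 and 18.0 CPM of somatic cells. Catsper3 (chr13:55784568-55808998, plus strand) was at 188 CPM in cKO and 220.5 CPM in control round spermatid-like cells and at 2.44 and 1.45 CPM in mid to late pachytene. Both genes were thus close to absent through pachytene, below the somatic level, and their highest and next classes did not overlap in counting interval.

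Catsper4 (chr4:134211970-134227383, minus strand) was at 168 CPM in cKO and 179 CPM in control round spermatid-like cells and at 3.27 and 1.74 CPM in mid to late pachytene. Finer clusters placed the rise inside the diplotene to secondary spermatocyte-like class. In its first cluster (17) Catsper4 was at 11.2 CPM in cKO and 4.96 CPM in control cells, and in its second (6) at 49.3 and 56.3 CPM. Catsper1 and Catsper3 rose between the same clusters, Catsper3 to 49.2 CPM in cKO and 57.2 CPM in control cells of cluster 6. Catsper3 and Catsper4 were thus above their somatic intervals in cluster 6. Those intervals ended at 37.6 CPM in cKO and 37.1 CPM in control cells for Catsper3 and at 39.2 and 47.2 CPM for Catsper4. Catsper4 went on rising to the last round spermatid cluster (12), where it stood at 224 CPM in cKO and 239 CPM in control cells, and 97.2 and 99.3 CPM remained in the first elongating cluster (11). Catsper3 had already fallen to 26.4 CPM in cKO and 38.3 CPM in control cells of cluster 11.

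Catsper2 (chr2:121392631-121413792, minus strand), the remaining pore gene, followed another course. It was at 281 CPM in cKO and 297 CPM in control mid to late pachytene, and it was highest in diplotene to secondary spermatocyte-like cells, at 357 CPM in cKO and 346 CPM in control cells. In round spermatid-like cells, where the other pore genes peaked, it was down to 53.2% of its highest class in cKO and 47.2% in control cells. Its gene overlaps Pdia3 on the opposite strand, though not in its last 500 bases. Early pachytene levels were close, at 112 CPM in cKO and 102 CPM in control cells. The rule put onset there in cKO and at mid to late pachytene in control, where the somatic level was higher: 71.5 CPM (62.0 to 82.0) in cKO and 90.1 CPM (70.9 to 113) in control. With each cell staged by its own markers, onset was early pachytene in both.

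Catsperz (chr19:6922371-6925380, minus strand), a small subunit needed for the channel's regular arrangement along the tail, ran in parallel with Catsper2 up to diplotene. It was highest in diplotene to secondary spermatocyte-like cells, at 2172 CPM in cKO and 2007 CPM in control cells. Unlike Catsper2, it was still at 79.4% of that level in cKO and 78.7% in control round spermatid-like cells. It was also at 552 CPM in cKO and 696 CPM in control somatic cells, which the early pachytene level of 667 CPM exceeded in cKO and that of 641 CPM did not in control cells. Spermatogonium-like cells held only 156 CPM in cKO and 82.4 CPM in control cells, so the somatic level overstated free RNA there. The different onset that the rule gave for Catsperz in the libraries, early pachytene in cKO and mid to late pachytene in control, turned on that somatic level, and with each cell staged by its own markers the order was reversed. The gene overlaps Kcnk4 on the same strand outside its last 500 bases.

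Each canopy gene had its highest class in pachytene, ahead of the pore genes and Catsperz. Catsperb (chr12:101404653-101626009, plus strand) was at 14.4 CPM in cKO and 14.2 CPM in control leptotene to zygotene spermatocyte-like cells, and at 350 and 405 CPM in early pachytene, its highest class. By the round spermatid stage it had fallen to 45.0 CPM in cKO and 48.8 CPM in control cells, no more than in somatic cells. Catspere1 (chr1:177808550-177962233, plus strand) was at 5.67 CPM in cKO and 4.73 CPM in control leptotene to zygotene, and at 173 and 195 CPM in mid to late pachytene. It was almost gone in round spermatid-like cells, at 3.08% of its highest class in cKO and 2.77% in control cells.

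Catsperg1 (chr7:29181321-29214035, minus strand) and Catsperg2 (chr7:29697219-29727032, minus strand) are a mouse pair of genes for the gamma subunit. Catsperg1 was highest in early pachytene, at 226 CPM in cKO and 266 CPM in control cells. It was already at 46.9 CPM in cKO and 59.6 CPM in control leptotene to zygotene, which passed the onset rule in control and fell just short in cKO, where the interval of 40.3 to 54.2 met a somatic interval ending at 40.3. Catsperg2 was also highest in early pachytene, at 137 CPM in cKO and 160 CPM in control cells. Of the 40-base words in the last 400 bases of their transcripts, Catsperg1 shares 53.7% with Catsperg2 and Catsperg2 shares 47.6% with Catsperg1. Catspere1 shares 66.2% of its own with Catspere2. How reads from these shared stretches were counted was not checked, so the counts of these 3 members are less certain.

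Catsperd (chr17:56628143-56664456, plus strand), a canopy subunit whose loss destabilises the channel in mice, was the one member with 2 separate high points. The first was in mid to late pachytene, at 164 CPM in cKO and 209 CPM in control cells. It then fell to 35.1 CPM in cKO and 31.8 CPM in control round spermatid-like cells, about the somatic level of 43.5 and 38.4 CPM. In the first elongating spermatid-like cluster (11) it was back at 136 CPM in cKO and 145 CPM in control cells, and it declined through the later clusters to 30.3 and 35.8 CPM in the last (2). Over the whole elongating class it held 52.4% of its highest level in cKO and 48.5% in control cells. No other member was above 23% of its own highest class there in either library.

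**Figure D2:**
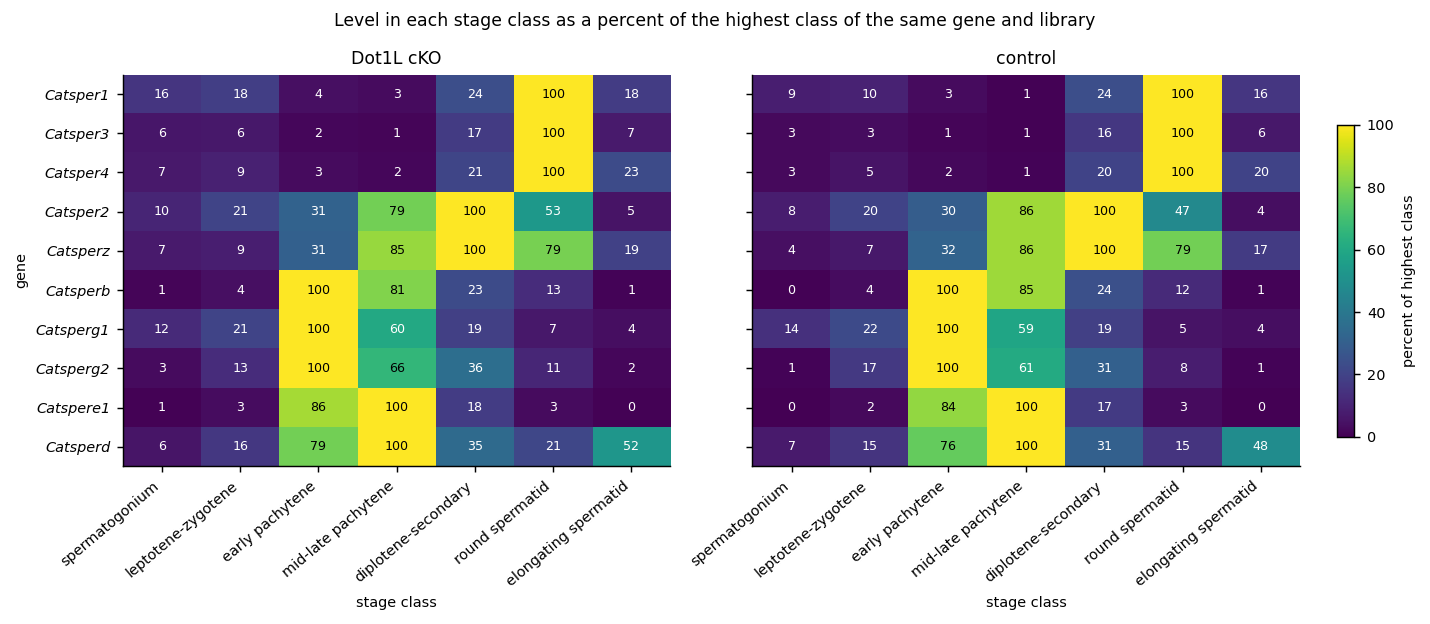
Level of each gene in each of the 7 stage classes as a percent of that gene's highest class, in cKO (left) and control (right). Catsper1, Catsper3 and Catsper4 reach 100% in round spermatids, Catsper2 and Catsperz in the diplotene to secondary class, and Catsperd keeps 52.4% in cKO and 48.5% in control elongating spermatids.

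Across the 7 classes of both libraries (14 points, which share libraries and class totals), log2(CPM + 10) of Catsper1 and Catsper3 had a Pearson correlation of 0.99, and Catsper4 had one of 0.96 with each of them. Catsperb and Catspere1 correlated at 0.96, as did Catsperb and Catsperg2. Catsper1 and Catsperg1 ran in opposite directions, at −0.69. Among 9108 other genes, those nearest to the summed CatSper level were Ldhal6b at 0.997, Prps1l1 at 0.996, Ift22 at 0.993, Morn5 at 0.993 and Serf1 at 0.992. Catsperz gave 33.6% to 75.7% of the summed UMIs in the germ cell classes, so these genes follow mainly its course. Ldhal6b, a testis lactate dehydrogenase-like gene, was highest in mid to late pachytene, at 1645 CPM in cKO and 1774 CPM in control cells.

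Among germ cell classes, the other genes of the complex and of sperm ion and signalling control peaked in every one from spermatogonia to elongating spermatids. Of 27 listed, 26 were in the tables, and each had its highest class in common between the libraries. In 12 of them this was the round spermatid-like class, as for the late pore genes. Efcab9, the partner of Catsperz, was at 567 CPM in cKO and 645 CPM in control round spermatid-like cells and at 8.94 and 5.23 CPM in mid to late pachytene, where Catsperz was at 1838 and 1723 CPM. Tmem249 and Tmem262, small membrane proteins of the complex, and Kcnu1 with Lrrc52, the sperm potassium channel and its accessory subunit, also peaked there. Another 5 genes peaked in mid to late pachytene: C2cd6 and Slco6c1, also parts of the complex, Catspere2, the exchanger gene Slc9c1 and the anion transporter gene Slc26a8. C2cd6 was at 321 CPM in cKO and 327 CPM in control mid to late pachytene and still at 281 and 297 CPM in round spermatid-like cells. Akap4, a fibrous sheath gene that is also one of the elongating spermatid markers, and Atp1a4, the sperm sodium pump, peaked in elongating spermatid-like cells. Of the rest, Trim69 and the protein kinase A gene Prkaca peaked in the diplotene to secondary class, Atp2b4 and Cnnm4 in early pachytene, and Cnnm2 in leptotene to zygotene. The calcium release channel gene Itpr1 and Hvcn1 peaked in spermatogonium-like cells. Itpr1 was there at 58.8 CPM in cKO and 95.9 CPM in control cells, against 76.4 and 72.1 CPM in somatic cells. Hvcn1, at no more than 4.12 CPM in any germ cell class, was at 5.26 CPM in cKO and 2.40 CPM in control somatic cells.

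In the cKO, each CatSper transcript peaked at the same stage as in control, and at that stage its level was within 1.5-fold of control. In early pachytene, diplotene to secondary, round and elongating spermatid-like cells, 0 members were past 1.5-fold in either direction, where 11.2%, 22.1%, 26.6% and 34.1% of all measured genes were. The limit for counting a gene as measured was 50 UMIs, cKO and control together, and it was reached by all 10 members in early pachytene, diplotene to secondary and round spermatids, by 9 in leptotene to zygotene, mid to late pachytene and elongating spermatids, and by 4 in spermatogonium-like cells. The median log2 ratio of the members was −0.05 in early pachytene, −0.11 in mid to late pachytene, −0.12 in the diplotene to secondary class, 0.03 in round and −0.04 in elongating spermatids, the last of which ran from −0.32 to 0.39 under other settings and so has no settled direction. The round spermatid median has none either, because scaling by the median of gene ratios lowered every log2 ratio there by 0.13. Over all measured genes the median was 0.02, 0.04, 0.09, 0.13 and 0.29 in the same classes, above the members' median in these 5 classes. The members' medians had order-statistic intervals over genes of −0.23 to 0.17, −0.28 to 0.75, −0.31 to 0.05, −0.23 to 0.20 and −0.24 to 0.52. These held the median of all genes in every class but diplotene to secondary, so a shift of the members as a set is not settled. In leptotene to zygotene the members' median was above that of all genes, at 0.09 (−0.35 to 0.68) against 0.01.

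**Figure D3:**
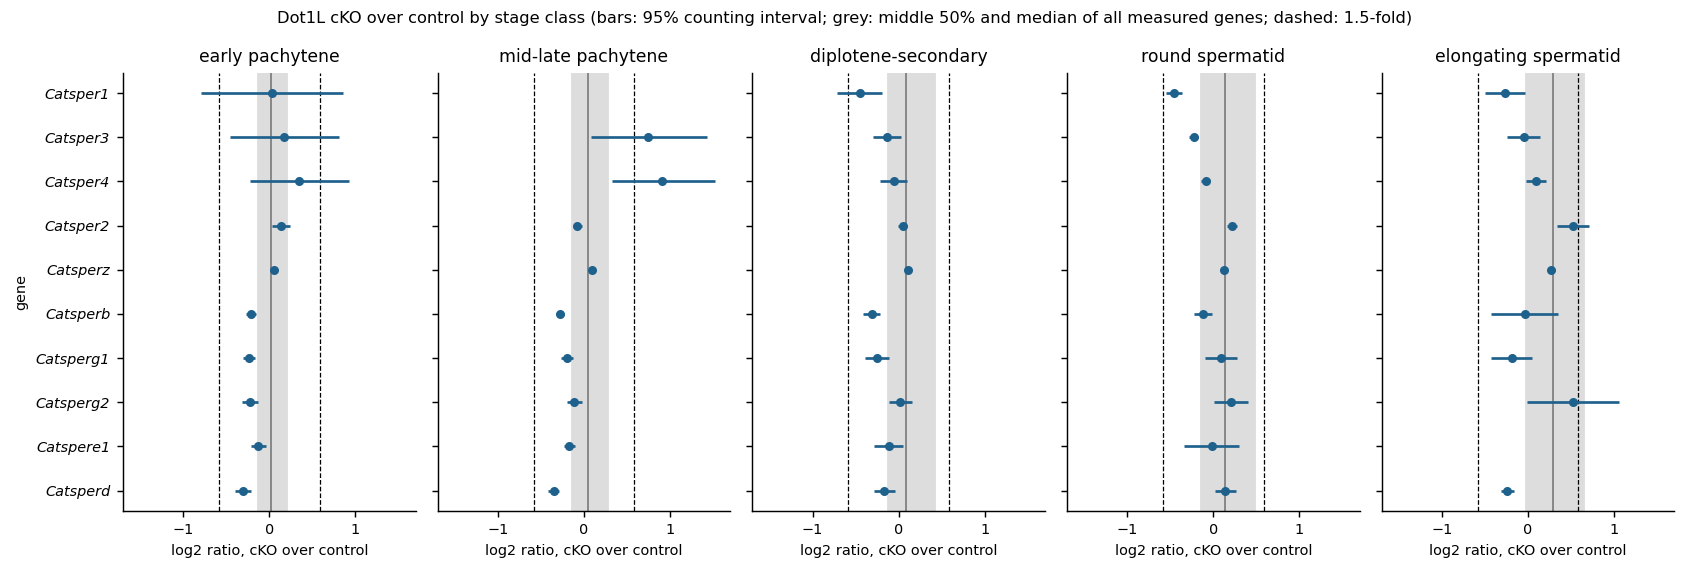
Log2 ratio of CPM, cKO over control, for each measured member in 5 classes; bars are 95% counting intervals, the grey band is the middle 50% of all measured genes with their median, and dashed lines mark 1.5-fold. Catsper1 sits at −0.46 in round spermatids, Catsperb, Catsperd, Catsperg1, Catsperg2 and Catspere1 sit left of 0 in both pachytene classes, and Catsper3 and Catsper4 in mid to late pachytene rest on few counts.

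Catsper1 was the member that was lowest in cKO spermatids relative to control. Its 1510 UMIs in cKO and 2351 in control round spermatid-like cells gave a log2 ratio of −0.46 (−0.55 to −0.36), and 9.0% of measured genes had a lower one. It was lower in cKO cells in each of the 3 round spermatid clusters, with log2 ratios of −0.50 (−0.64 to −0.35) in cluster 5, −0.38 (−0.57 to −0.19) in cluster 14 and −0.46 (−0.63 to −0.30) in cluster 12. In cluster 6, just before, it was −0.52 (−0.79 to −0.25), and in the first elongating cluster −0.38 (−0.67 to −0.11). With scaling by the median of gene ratios, which lowered every round spermatid log2 ratio by 0.13, Catsper1 was at −0.59 and became the 1 member past 1.5-fold there. That scaling also changed the share of all genes past 1.5-fold in round spermatids from 20.4% higher and 6.27% lower to 15.6% and 9.20%.

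Catsper3 was also lower in cKO round spermatid-like cells, with a log2 ratio of −0.23 (−0.28 to −0.18), and lower in each of the 3 round clusters, between −0.17 and −0.33. Catsper4, at −0.09 (−0.14 to −0.03), was close to control. Catsper2 was higher, at 0.22 (0.16 to 0.27), and lay between 0.15 and 0.20 in the 3 round clusters. The 4 pore genes thus did not move in 1 direction, and the values of Catsper1 and Catsper2 had intervals on opposite sides of 0. Median depth was a little lower in cKO round spermatid-like cells, at 19504 UMIs, against 20733 in control cells.

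Counted per cell, the order was the same. With every cell thinned to 2000 UMIs, 9.21% (7.71 to 10.9) of cKO and 14.0% (12.3 to 15.9) of control round spermatid-like cells held a Catsper1 UMI. For Catsper3 the shares were 29.7% (27.3 to 32.2) in cKO and 35.4% (32.9 to 37.96) in control cells, and for Catsper2 31.1% (28.6 to 33.7) and 26.2% (24.0 to 28.6). Catsper4, at 28.1% (25.7 to 30.5) in cKO and 30.9% (28.5 to 33.4) in control cells, overlapped. In somatic cells thinned alike, 2.08% of cKO and 4.71% of control cells held a Catsper1 UMI and 4.76% and 2.35% a Catsper3 UMI, so the round spermatid shares were above the somatic level. Shallower cells left out numbered 38 cKO and 18 control round spermatid-like cells and 211 cKO and 88 control somatic cells, whose median depths before thinning were 2444 and 1983 UMIs. Without thinning, 58.2% of cKO and 72.7% of control round spermatid-like cells held a Catsper1 UMI, and 697 of 1385 cKO cells (50.3%) and 910 of 1452 control cells (62.7%) held UMIs of all 4 pore genes.

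**Figure D4:**
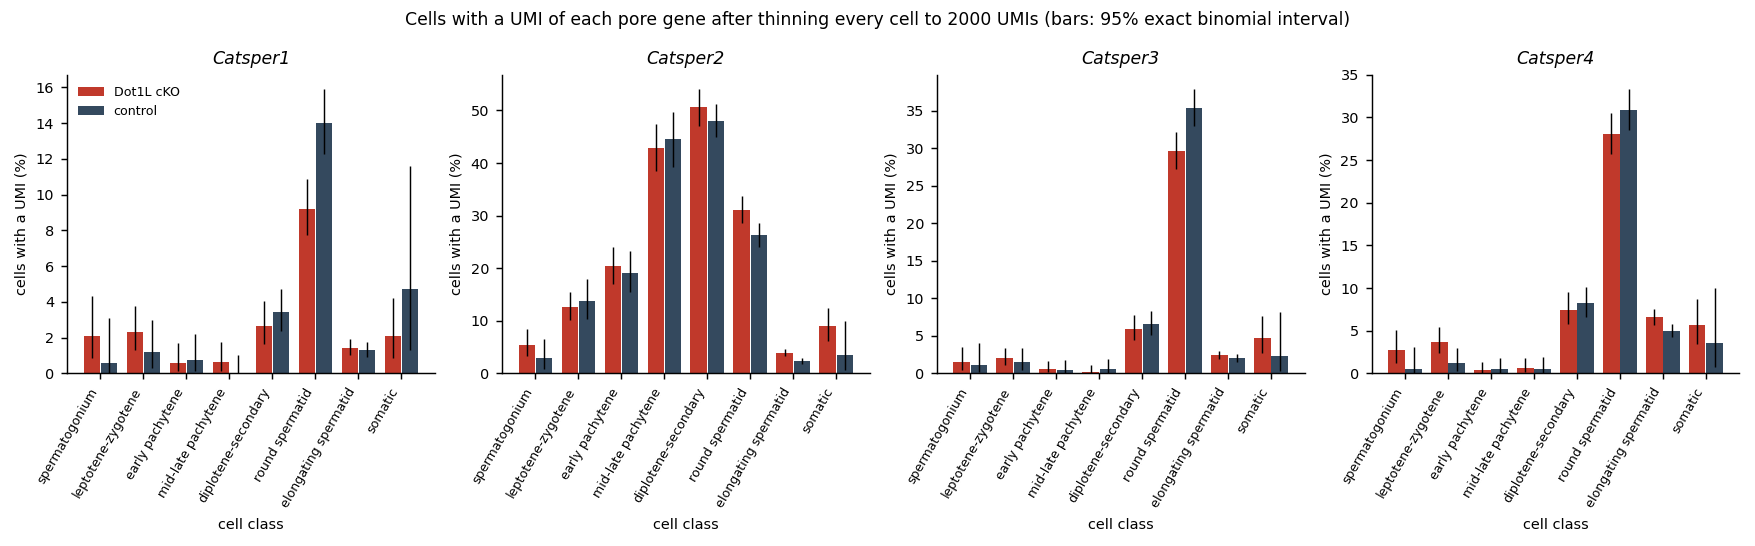
Percent of cells with at least 1 UMI of each pore gene after thinning to 2000 UMIs, by class, for cKO (red) and control (dark blue), with 95% exact binomial intervals. In round spermatids Catsper1 is at 9.21% in cKO and 14.0% in control cells, while Catsper2 is at 31.1% and 26.2%.

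In pachytene each of the canopy genes was below control. In early pachytene Catsperd was at 129 CPM in cKO and 160 CPM in control cells, a log2 ratio of −0.31 (−0.40 to −0.21). Catsperb was at −0.21 (−0.27 to −0.15), Catsperg1 at −0.23 (−0.30 to −0.16), Catsperg2 at −0.22 (−0.32 to −0.13) and Catspere1 at −0.13 (−0.22 to −0.04). All 5 were again below 0 in mid to late pachytene, from −0.35 (−0.41 to −0.29) for Catsperd to −0.11 (−0.20 to −0.02) for Catsperg2, with intervals that left out 0. Catsper2 was above control in early pachytene, at 0.14 (0.03 to 0.24), and below it in mid to late pachytene, at −0.08 (−0.13 to −0.03). Catsperz was slightly above control in both classes, at 0.06 (0.01 to 0.10) and 0.09 (0.07 to 0.11). These differences are small beside 1.5-fold, a log2 ratio of 0.58, and whether they exceed the spread between animals was not tested.

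In mid to late pachytene 2 members, Catsper3 and Catsper4, were past 1.5-fold, both higher in cKO, where 16.1% of measured genes were past it in either direction and 11.5% were past it higher. Catsper3 had 58 UMIs in cKO and 30 in control cells, a log2 ratio of 0.75 (0.09 to 1.43), and Catsper4 had 78 and 36, a log2 ratio of 0.91 (0.32 to 1.52). Both stood at 1.45 to 3.27 CPM, under the somatic level of 24.0 to 32.4 CPM, so at this depth they cannot be told apart from free RNA, and with each cell staged by its own markers they reversed to −0.49 and −0.22. In leptotene to zygotene 2 members, Catsper3 and Catsper4, were past 1.5-fold higher and 1, Catsperg2, lower, where 12.4% of all genes were past it, 8.75% higher and 3.65% lower. Of these 3, Catsper3 at 12.1 CPM in cKO and 7.09 CPM in control cells and Catsper4 at 15.2 and 9.45 CPM were again under their somatic level. Catsperg2, at 17.3 CPM in cKO and 26.5 CPM in control cells, was near its somatic level of 22.1 and 21.6 CPM. In spermatogonium-like cells 1 member, Catsperz, was past it higher and 1, Catsperd, lower, where 14.8% of all genes were past it, 9.33% higher and 5.48% lower. Catsperz was at 156 CPM in cKO and 82.4 CPM in control cells, both far under its somatic level. Catsperd had 24 UMIs in cKO and 26 in control cells, a log2 ratio of −0.70 (−1.57 to 0.16) whose interval held 0. It was at 9.40 and 15.3 CPM, also under its somatic level of 43.5 and 38.4 CPM.

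In elongating spermatid-like cells Catsper2 was at 18.8 CPM in cKO and 13.1 CPM in control cells, a log2 ratio of 0.52 (0.34 to 0.70), both below its somatic level. Catsperd, the member that rises there, was at 85.8 CPM in cKO and 101 CPM in control cells, a log2 ratio of −0.24 (−0.31 to −0.16). It was closest to control in the first elongating cluster, at −0.09 (−0.21 to 0.03), and lowest in the next (3), at −0.40 (−0.52 to −0.28). Scaling by the median of gene ratios lowered every log2 ratio of this class by 0.29, taking Catsperd to −0.53 and the split of all genes past 1.5-fold from 28.6% higher and 5.54% lower to 16.1% and 12.1%. Median depth was 6807 UMIs in cKO and 8310.5 UMIs in control elongating spermatid-like cells.

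The listed partner genes were measured for 25 members in round spermatid-like cells, with a median log2 ratio of −0.16, against 0.13 for all genes. Past 1.5-fold there were 2, both higher in cKO and both linked to magnesium transport, Cnnm2 at 1.42 (0.92 to 1.94) and Cnnm4 at 0.65 (0.13 to 1.19), each at under 4 CPM. Both were below their somatic level, 7.36 CPM in cKO and 6.01 CPM in control cells for Cnnm2 and 5.61 and 7.21 CPM for Cnnm4. The late complex genes were below control, with Tmem249 at −0.32 (−0.38 to −0.26), Tmem262 at −0.26 (−0.31 to −0.21) and Efcab9 at −0.18 (−0.21 to −0.16). Lrrc52 was at −0.23 (−0.31 to −0.15) and Kcnu1 at −0.23 (−0.32 to −0.14). In mid to late pachytene 7 of 23 measured were past 1.5-fold, all higher in cKO, where 11.5% of all genes were past it higher and 4.53% lower. Among them were 6 genes that peak in round spermatids and stood at under 10 CPM in this pachytene class, each below its somatic level. Efcab9, for example, was at 8.94 CPM in cKO and 5.23 CPM in control cells, against 77.8 and 107 CPM in somatic cells. Like Catsper3 and Catsper4 there, these 6 cannot be told apart from free RNA. In early pachytene 1 of 22 was past it higher and 1 lower, against 8.11% and 3.12% of all genes. In the diplotene to secondary class 4 of 25 were past it higher and 0 lower, against 17.5% and 4.60%, and in elongating spermatids 4 of 22 higher and 0 lower, against 28.6% and 5.54%. In round spermatids the 2 of 25 higher and 0 lower stood against 20.4% and 6.27%.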

How the data were processed

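Each library was deposited as a matrix of raw UMI counts, genes by barcodes, which the file headers credit to Cell Ranger 7.0.0. The submitters' processing notes name the mm10 build and Seurat 4.1.0. Whether intronic reads were counted is not given in the sources used here.

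A barcode was used if it had at least 500 UMIs, at least 300 detected genes and no more than 10% of UMIs from mitochondrial genes. Doublets with a scrublet score over 0.15 were removed, 840 cKO cells (4.55%) and 613 control cells (3.86%); the score caught 26.0% of simulated cKO and 29.1% of simulated control doublets, so many remain. The 2000 most variable genes, without the CatSper and partner genes, Dot1l, transition protein, protamine, histone and mitochondrial genes, gave 30 principal components, a graph of 20 neighbours and Leiden clusters at resolution 1.0 (scanpy 1.11.5, leidenalg 0.10.2), with no integration. A cluster took the name of the marker list with the highest median log2 score over the mean of clusters. At least 3 markers of the list had to reach 0.5. The score had to be at least 0.5 for germ cell lists and 2.0 for somatic lists, the latter with both spermatid scores under 0. Clusters with the Sertoli or erythroid list highest were left unnamed by rule. The largest of these were cluster 0 (erythroid score 4.05, median 909 UMIs) and cluster 1 (Sertoli score 2.37, median 890 UMIs). Germ cell clusters with a median under 3000 UMIs were held apart. These thresholds were set after the clusters were seen, and the classes may differ from those of the study.

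Within each library the UMIs of a class were summed, and a class needed 100 cells in both libraries to be compared. Each CPM carries an exact Poisson interval, each log2 ratio an exact interval from the binomial distribution and each share a Clopper-Pearson interval, all at 95%. UMI sums over all 10 genes ranged from 312 in control spermatogonium-like cells to 79201 in control round spermatid-like cells. The partner list, the markers and the rule for similar genes (the 5 with the highest correlation, of genes with 500 or more UMIs in each library) were written down with the design, and the CatSper genes and these lists were chosen with earlier results of these data known. Gene positions are from GENCODE vM21 on GRCm38 and matched by Ensembl identifier for 32235 of 32285 genes. The code that computes ratios was tested on simulated data.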

Additional observations from a re-analysis of the deposited data

How the results depend on the processing

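Of 75 alternative values for the members' medians and onset counts, 69 stayed within the spread of the members or within 1.5 times the count, and 6 moved. In elongating spermatids the median was −0.32 under scaling by the median of ratios and −0.27 after subtracting free RNA (4 members), against −0.04, and other settings gave up to 0.39, so it has no settled direction. Free RNA subtraction left 1 member each in spermatogonium-like cells (−2.70) and leptotene to zygotene (−1.31), and with no UMI minimum the spermatogonium-like median was 0.93. Keeping doublets gave −0.26 in early pachytene. With every cell staged by its own markers, Catsper3 and Catsper4 in mid to late pachytene reversed to −0.49 and −0.22; 88.8% of 12489 cells stayed in their class, and 1231 of 13287 (9.26%) had another class's score within 0.1. The cause of these moves was not tested. Of 564 single-gene values, 470 stayed, 92 moved and 2 reversed.

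Catsper1 in round spermatids ranged from −0.59 to −0.36, Catsper3 from −0.36 to −0.10 and Catsper2 from 0.09 to 0.27 over all settings run. Catsperb, Catsperd, Catsperg1, Catsperg2 and Catspere1 were below 0 in both pachytene classes under each setting that gave a value. Catsperz in round spermatids was at −0.01 under the median of ratios, and Catsper4, Catsperd, Catsperg1 and Catspere1 there also changed sign under at least 1 setting. The number of genes on before round spermatids was 7 in each library under thresholds of 5% and 25%. By each cell's own markers it was 7 in cKO and 8 in control, where Catsper3 came on in the diplotene to secondary class, and 6 of the 20 onsets changed. Adding the low RNA clusters to their classes, chosen after seeing the data, changed no onset. With a mitochondrial limit of 5% the spermatogonium-like, leptotene to zygotene and mid to late pachytene classes gave no value.

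No paired analysis was possible because each genotype has 1 library and no test was made. Depth limits the early classes most, with 312 to 1577 CatSper UMIs in each spermatogonium-like and leptotene to zygotene sum.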
